A study of Saccharomyces cerevisiae with 8 samples.

Results

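The 26S proteasome genes of budding yeast and RPN4, the gene of their transcriptional activator, were examined across 4 groups of cultures. The set holds 33 of the 7122 features in the count table. They were listed by systematic identifier and by no cut on a measured value, but with earlier results of these data known. They are 14 subunits of the 20S core, 18 subunits of the 19S particle, and RPN4. All 33 matched a gene in the RefSeq annotation of assembly R64, all passed the filter on low counts in every comparison, and none overlaps another annotated gene. The lid subunit SEM1 is not a member and was read with the accessory genes.

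Every group was the same W303 strain of Saccharomyces cerevisiae, a laboratory strain, with PDR1 and PDR3 deleted. These encode a pair of transcription factors that activate drug-efflux genes and, in wild-type yeast, also RPN4, so the solvent controls lacked that input as well. Cultures growing in log phase on galactose medium received, for about 6 h, the solvent DMSO, 0.8 µM clioquinol (CQ, a metal-binding 8-hydroxyquinoline), 20 µM of the thione 10{3,3,1} that the labels call active, or 20 µM of the thione 11 that they call inactive. The labels conflict: the growth protocol has wild-type cells and millimolar doses, and the entries for each sample have micromolar doses and the deletion strain, which are used here. Each group had 2 replicates, and the series design describes replicates as biological.

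The proteasome degrades proteins tagged with ubiquitin. Its 20S core is a barrel of outer alpha and inner beta rings, and its 19S particle has a base, whose ATPases unfold the substrate, and a lid, which removes the ubiquitin. Yeast transcribes nearly all subunit genes through a short promoter element, PACE, which Rpn4 binds. Rpn4 is itself a rapidly degraded substrate of the proteasome, so that Rpn4 protein builds up when degradation slows. RPN4 transcription is also known to respond to Yap1 and Hsf1, factors of the oxidative and heat-shock responses.

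PACE, written GGTGGCAAA and searched on both strands, was present within 300 bases upstream of the start codon in 27 of the 32 subunit genes, or 84.4%. It was present in the same window of 73 of 6007 nuclear protein-coding genes, or 1.22%. That number includes those 27 and some divergent neighbours, such as ALG13 beside RPT6, whose window holds the subunit's own element. The element began 84 to 183 bases before the start codon, with a median of 120, and lay in the direction of the gene in 19 cases and opposite to it in 8. The letters were not found in this window of PRE5, PUP1, RPN8, RPN10, RPN13 or RPN4. The core letters GTGGCAA were found in 31 of the 32 subunit genes and in 4.91% of all genes. The 7-letter Yap1 element TTANTAA was found in 9 of the 32 (28.1%, against 18.7% of all genes), the heat shock element GAANNTTC in 3 (9.38%, against 11.5%) and the Pdr1/Pdr3 element TCCGNGGA in 0, against 1.32%. All were searched on both strands, the core lies inside PACE by its letters, and 0 matches of the other elements shared bases with one another or with PACE in these genes. A match of letters is a description and no evidence of binding.

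The 300 bases upstream of RPT1, RPT6 and RPN4 are shown first, because RPT1 and RPT6 passed the threshold with CQ and RPN4 encodes the activator. Capitals mark PACE in RPT1 (reverse strand) and RPT6, and a heat shock element in RPN4, whose window held none of the other elements searched. That match in RPN4 begins 16 bases before the start codon, and bases farther than 300 upstream were not searched. The sequences are from RefSeq R64, read 5′ to 3′ on the strand of the gene. They are those of the reference assembly, and the sequence of the W303 strain used was not read.
RPT1, chrXI:173913-174212, plus strand: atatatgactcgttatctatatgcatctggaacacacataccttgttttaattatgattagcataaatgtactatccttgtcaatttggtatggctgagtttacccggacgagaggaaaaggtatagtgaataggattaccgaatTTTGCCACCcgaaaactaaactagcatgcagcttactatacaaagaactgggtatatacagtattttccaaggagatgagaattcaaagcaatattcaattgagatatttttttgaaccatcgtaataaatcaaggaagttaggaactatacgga
RPT6, chrVII:411287-411586, minus strand: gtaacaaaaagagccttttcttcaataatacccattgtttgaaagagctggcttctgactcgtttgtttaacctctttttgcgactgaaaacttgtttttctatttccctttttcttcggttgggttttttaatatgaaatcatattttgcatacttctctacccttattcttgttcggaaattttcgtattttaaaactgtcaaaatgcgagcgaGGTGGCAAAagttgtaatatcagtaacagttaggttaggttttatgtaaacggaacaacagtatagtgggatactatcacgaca
RPN4, chrIV:416709-417008, minus strand: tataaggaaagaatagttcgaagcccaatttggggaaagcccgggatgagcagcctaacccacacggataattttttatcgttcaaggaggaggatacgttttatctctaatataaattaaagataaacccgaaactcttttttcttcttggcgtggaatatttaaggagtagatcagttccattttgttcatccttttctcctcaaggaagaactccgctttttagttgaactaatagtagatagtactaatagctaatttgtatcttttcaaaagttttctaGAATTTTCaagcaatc

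The element is shown with its flanks, in 60 bases with PACE in capitals, for 4 core subunits whose values are described below.
PRE3, chrX:435020-435079, plus strand: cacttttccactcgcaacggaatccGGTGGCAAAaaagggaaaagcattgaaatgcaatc
PRE10, chrXV:1018840-1018899, minus strand: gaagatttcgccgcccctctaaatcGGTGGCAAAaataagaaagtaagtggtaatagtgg
PRE8, chrXIII:86825-86884, minus strand: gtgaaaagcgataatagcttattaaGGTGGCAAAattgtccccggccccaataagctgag
PUP3, chrV:349495-349554, minus strand: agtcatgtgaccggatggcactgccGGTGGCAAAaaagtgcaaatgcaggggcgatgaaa

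**Figure D1:**
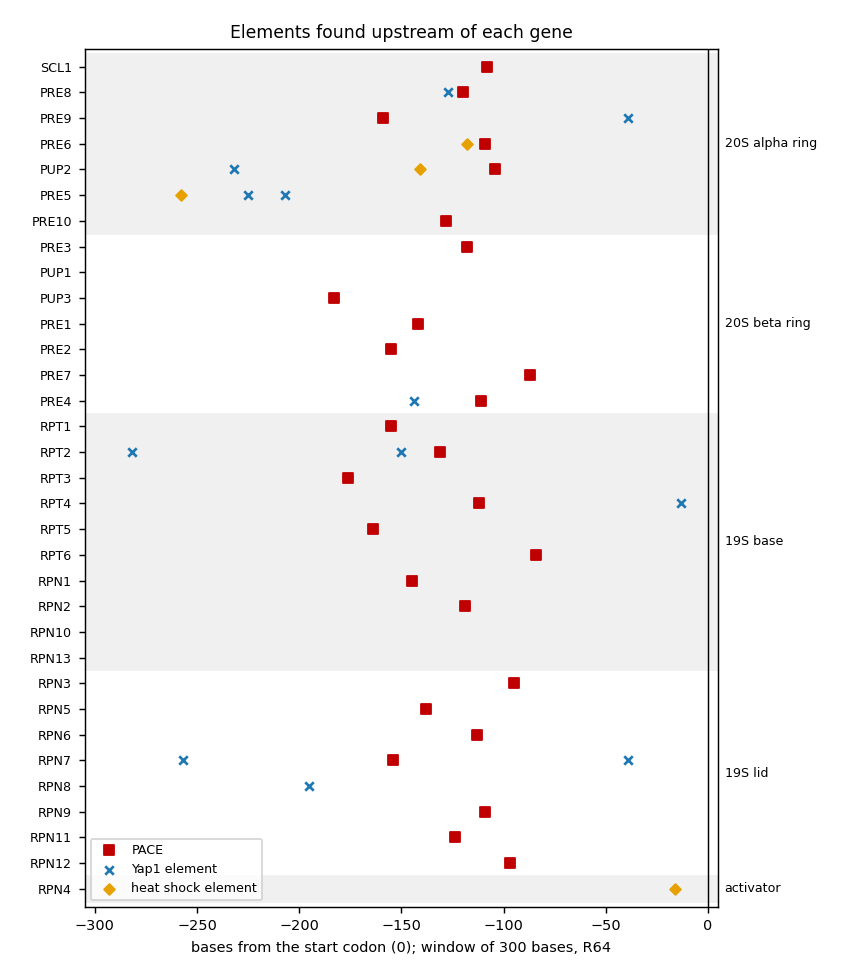
Positions of PACE (squares), the Yap1 element (crosses) and the heat shock element (diamonds) upstream of each gene, in bases from the start codon at 0, over a window of 300 bases in R64. PACE lies between 84 and 183 bases upstream in 27 of the 32 subunit genes, and RPN4 has none in the window.

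The libraries held 12076141 to 19021672 counts. Levels are given as CPM, counts scaled to an equal library size with TMM factors. Counts of PDR1 and PDR3 were 0 in each of the 8 libraries, a level of at most 0.158 to 0.248 CPM, as the strain label has it. Genes specific to alpha cells summed to 539 to 1795 CPM and those specific to a cells to 25.7 to 35.4 CPM. The 2 libraries of each group differed by more than sampling noise, with a chi-square per degree of freedom of 22.8 in DMSO and 102.8 in CQ. The lowest count of any proteasome gene in any library was 499, in RPN13. CPM gives each gene's share of the messages, so a change in total message per cell would not be seen.

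In solvent alone the subunit genes were expressed at similar levels per length. Over the 2 DMSO libraries their levels ran from 76.5 CPM per kb of coding length in RPN13 (YLR421C), a ubiquitin receptor, to 324 in RPN8 (YOR261C), a lid subunit, a ratio of 4.23. The median was 157 CPM per kb, above 80.8% of the tested protein-coding genes. The middle 50% of the subunits spanned 134 to 173 CPM per kb, a ratio of 1.29, whereas the middle 50% of 5530 genes spanned a ratio of 5.48. The alpha ring had a median of 189 CPM per kb, the beta ring 161, the base 157 and the lid 147.

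RPN8 stood alone at the top, with 295 and 352 CPM per kb in the DMSO libraries. SCL1 (YGL011C, the alpha1 subunit) followed with 249 and 248, PUP1 (YOR157C, the catalytic beta2 subunit) with 217 and 257, and RPT5 (YOR117W, a base ATPase) with 206 and 221. Of the 32 neighbouring pairs in the order of levels, 25 overlapped between libraries. The lowest subunits were RPN13, PUP3 (YER094C, beta3), RPN12 (YFR052W, lid), RPN7 (YPR108W, lid), PRE10 (YOR362C, alpha7) and RPN1 (YHR027C, a scaffold of the base), with averages from 76.5 to 99.02 CPM per kb. RPN4 (YDL020C) was below every subunit, at 44.3 and 35.6 CPM per kb.

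**Figure D2:**
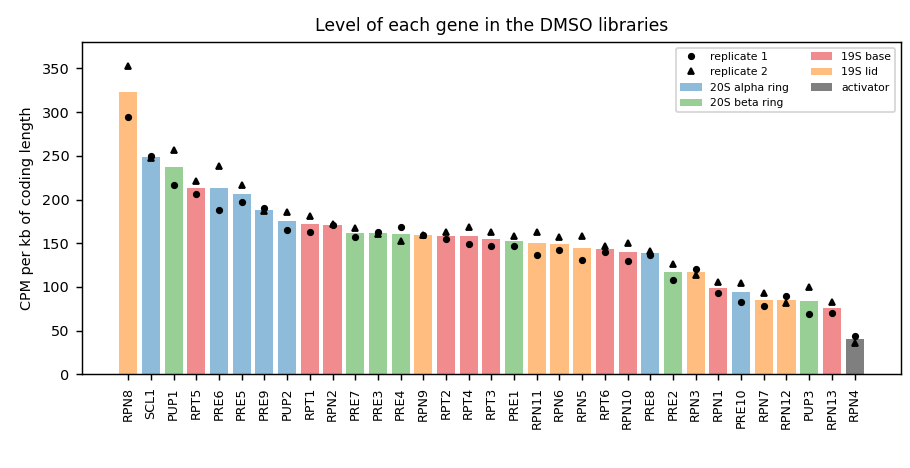
Level of each of the 33 genes in DMSO, in CPM per kb of coding length, with bars at the mean of the 2 libraries and points for each library, coloured by part of the complex. The subunits span 76.5 to 324 on average, and RPN4 lies at 39.9.

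Summed over the 32 subunits, proteasome messages were lowest in the 2 DMSO libraries. They came to 5168 and 5631 CPM in DMSO, 6621 and 6584 in CQ, 5982 and 6858 with the active thione, and 5963 and 6284 with the inactive thione. All 6 treated libraries were above both DMSO libraries. The share of all features with all 6 above was not counted. In the single comparisons with DMSO, 29.5% to 32.2% of all features had both treated libraries above. As a share of raw counts, which uses no scaling, the subunits took 0.503% and 0.561% in DMSO and 0.587% to 0.689% in the treated libraries. The group means were 1.22-fold (CQ), 1.19-fold (active) and 1.13-fold (inactive) the DMSO mean. The 3 comparisons with DMSO share those 2 control libraries, so they are not independent of each other.

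In DMSO and with the active thione, most subunit genes differed between replicates in the same direction. Replicate 2 was higher than replicate 1 for 25 of the 32 in DMSO and 30 of the 32 with the active thione, against 21 with the inactive thione and 17 with CQ. The share of all features higher in replicate 2 was not counted. As log2 of CPM over the DMSO mean, the median of all features was -0.006 and 0.006 in the DMSO libraries. That of the subunits was -0.072 and 0.069. With the active thione it was 0.016 and 0.037 for all features and 0.15 and 0.41 for the subunits. RPN4 was lower in replicate 2 of DMSO, at 56.8 CPM against 70.6 in replicate 1, and had 58.9 and 56.9 CPM with the active thione.

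**Figure D3:**
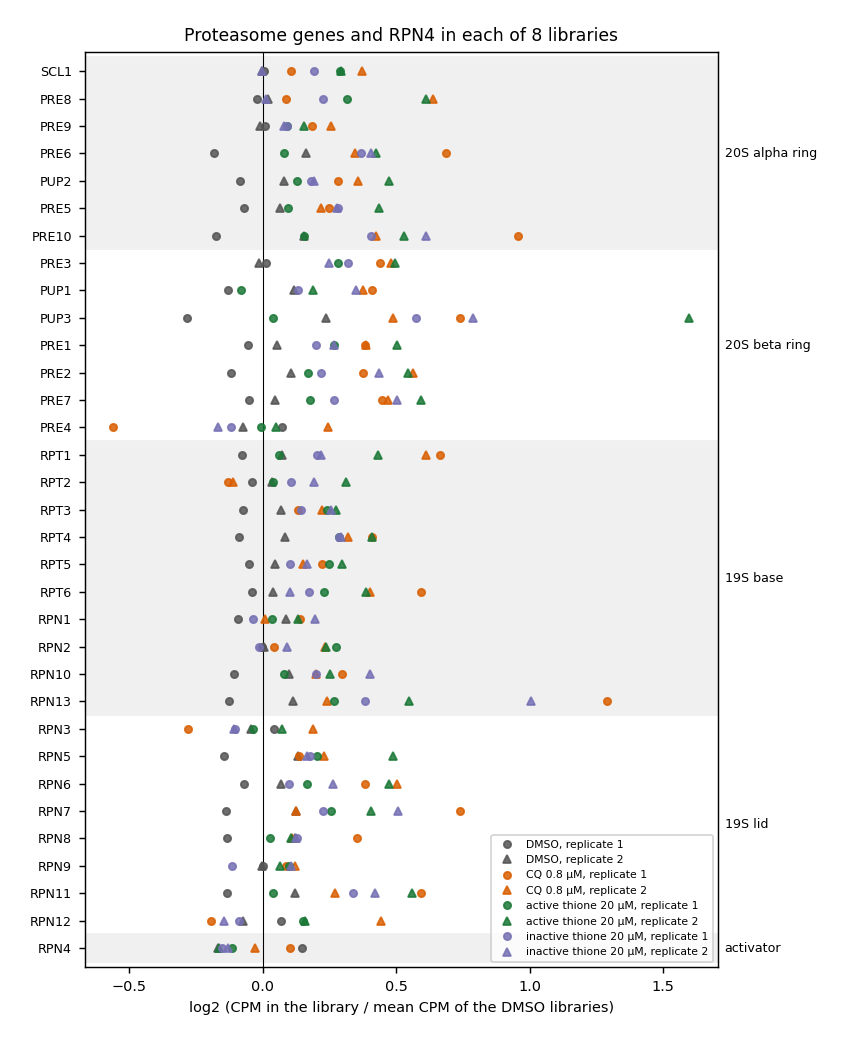
Each gene in each of the 8 libraries, as log2 of its CPM over the mean CPM of the DMSO libraries, with circles for replicate 1 and triangles for replicate 2. Most treated points lie to the right of 0, the active thione's replicate 2 farther than its replicate 1, and RPN13 and PUP3 spread most.

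With CQ at 0.8 µM 2 proteasome genes passed the threshold, and with the thiones 0 did. CQ and the thiones were given at different doses and were not tested against each other. RPT1 and RPT6, ATPases of the 19S base, rose, and 0 of the 33 fell. Their 6.06% share is close to the 4.92% of all 5696 features that rose (8.39% fell), and nothing about the proteasome is read from that count. The log2 fold change was above 0 in 30 of the 33 genes, and in 3030 of all 5696 features. The median of the 33 was 0.32 (1.25-fold), where the median of all features was 0.03. In 26 of the 33 (78.8%) both CQ libraries lay above both DMSO libraries, and in 1 (RPT2) both lay below, against 29.5% and 27.6% of all features. At an unadjusted p under 0.05 there were 13 of the 33 (39.4%), against 28.3% of all features.

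RPT1 (YKL145W, chromosome XI at 174213 to 175616 in R64) encodes a subunit of the ATPase ring. It had 229 and 254 CPM in DMSO, 382 and 369 in CQ, 252 and 326 with the active thione and 278 and 281 with the inactive. The CQ libraries were above all others. With CQ its log2 fold change was 0.64 ± 0.16 (SE, 1.56-fold, n = 2 a group, edgeR adjusted p = 0.0264).

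RPT6 (YGL048C, chromosome VII at 410069 to 411286), another ATPase of the ring, had 170 and 180 CPM in DMSO and 264 and 231 in CQ. The thione libraries lay between 188 and 229 CPM, the highest of them just under the lower CQ library. With CQ its log2 fold change was 0.50 ± 0.14 (SE, 1.41-fold, edgeR adjusted p = 0.0405). The other ATPases had log2 fold changes from -0.12 (RPT2) to 0.37 (RPT4) and did not pass. RPT2 (YDL007W) had 203 and 214 CPM in DMSO and 190.4 and 193 in CQ, both CQ libraries below both DMSO libraries (log2 fold change -0.12 ± 0.14, SE, edgeR adjusted p = 0.615).

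Both calls were lost with some single libraries left out, while the log2 fold changes stayed between 0.56 and 0.71 for RPT1 and between 0.39 and 0.56 for RPT6. RPT1 lost its call without DMSO replicate 1 (edgeR adjusted p = 0.258), DMSO replicate 2 (0.107) or CQ replicate 1 (0.0741). With 1 library left out, RPT6 kept its call only without CQ replicate 2 (0.0241). It lost it without DMSO replicate 1 or 2 (0.328 and 0.168), CQ replicate 1 (0.147), active thione replicate 1 or 2 (0.0540 and 0.0528), inactive thione replicate 1 or 2 (0.0628 and 0.0684). It also lost it when no filter was used (0.0633) and in the fit of CQ and DMSO alone (0.0923). The number of risers was 0 without either DMSO library, 1 without CQ replicate 1, where it was PRE8, and 1, RPT1, with any single thione library left out. Without CQ replicate 2 it was 6, with PRE6, PRE10, RPN7 and RPN13 added, and PRE4 fell. These 7 of 33 (21.2%) stand against 24.9% of all features in that fit. DESeq2 called 5 (15.2%), adding PRE3, PRE10 and RPN13, against 16.9% of all features.

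In the 20S core none of the 14 genes passed with CQ, and 13 had log2 fold changes above 0. The beta ring, which holds the catalytic sites, had a median of 0.46 and the alpha ring, which gates the barrel, one of 0.32. PRE3 (YJL001W, the catalytic beta1 subunit) had 106 and 104 CPM in DMSO and 142 and 146 in CQ. The CQ libraries were both above the DMSO libraries. The log2 fold change was 0.46 ± 0.13 (SE), just outside the threshold (edgeR adjusted p = 0.0504). PRE2 (YPR103W, catalytic beta5) and PUP1 (catalytic beta2) had log2 fold changes of 0.47 and 0.39, with both CQ libraries above both DMSO libraries in each. PRE10 had 72.2 and 90.6 CPM in DMSO and 158 and 109 in CQ, with the largest log2 fold change of the core at 0.72 ± 0.21 (SE, edgeR adjusted p = 0.0554). Without CQ replicate 1 it was 0.42, below the 0.63 of PRE8 in the same setting.

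PRE4 (YFR050C, beta7) differed most between the CQ libraries of the core, with 87.5 and 153 CPM against 135 and 122 in DMSO, so that DMSO lay between them. Its log2 fold change was -0.10 ± 0.22 (SE).

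In the rest of the 19S particle RPN13 had the largest log2 fold change of all, 0.86 ± 0.32 (SE, edgeR adjusted p = 0.112). It had 33.04 and 38.98 CPM in DMSO, 88.1 and 42.6 in CQ, 43.3 and 52.6 with the active thione and 47.0 and 72.3 with the inactive. CQ replicate 1 alone was far above the DMSO level, and the difference between the CQ libraries, 1.05 on the log2 scale, was larger than that of 96.2% of all features. Without CQ replicate 1 the log2 fold change was 0.24. The lid had a median of 0.21, from -0.03 in RPN3 (YER021W) to 0.47 in RPN7. RPN3 had 189 and 178 CPM in DMSO and 151 and 209 in CQ, so that DMSO lay between the CQ libraries (SE 0.17, edgeR adjusted p = 0.938). RPN11 (YFR004W), the deubiquitinase of the lid, had 126 and 150 CPM in DMSO and 209 and 167 in CQ (log2 fold change 0.44 ± 0.20, SE, edgeR adjusted p = 0.174).

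RPN4 did not pass the threshold with CQ. It had 70.6 and 56.8 CPM in DMSO, 68.5 and 62.5 in CQ, and with the thiones 56.9 to 58.9. The CQ libraries lay inside the range of DMSO. Its log2 fold change with CQ was 0.04, with a 95% interval from -0.29 to 0.37 (edgeR adjusted p = 0.892), and its sign changed in 3 of 13 alternative settings. That interval includes the subunits' median of 0.34, and RPN4 was not tested against the subunits.

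**Figure D4:**
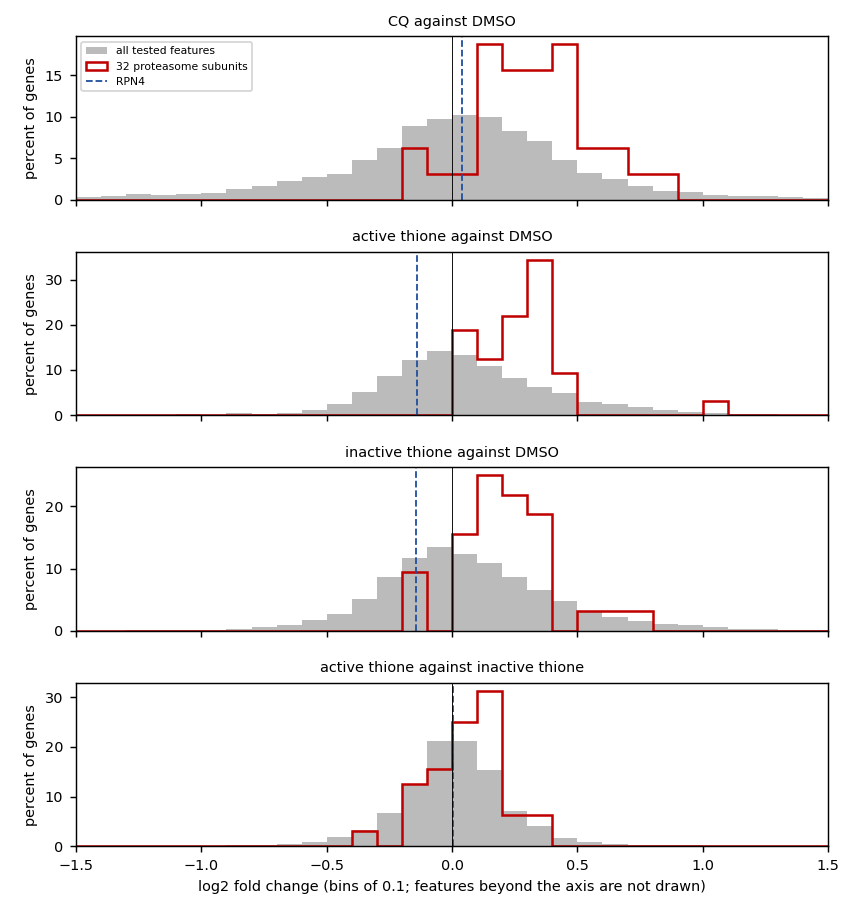
Distribution of log2 fold changes in the 4 comparisons, as percent of all tested features (grey) and percent of the 32 subunits (red outline), with RPN4 as a dashed line. Against DMSO the subunits' medians were 0.34 (CQ), 0.28 (active thione) and 0.19 (inactive thione), and RPN4 lay at 0.04, -0.14 and -0.14.

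With the active thione at 20 µM 0 of the 33 genes passed in edgeR, where 1.11% of all features rose and 0.263% fell. DESeq2 also called 0 of the 33, and 3.21% of all features. At an unadjusted p under 0.05 edgeR had 8 of the 33 (24.2%), against 13.8% of all features. All 32 subunits had log2 fold changes above 0 and RPN4 one below, where 3086 of all 5696 features were above 0. The median of the 33 was 0.28 against 0.03 for all features. With median-of-ratios size factors, without the filter, in DESeq2 or with the compared groups alone 30 of the 33 were above 0. In 22 of the 33 (66.7%) both treated libraries were above both DMSO libraries, and in 0 both were below, against 29.8% and 23.3% of all features. The median was 0.15 without active thione replicate 2 and 0.41 without replicate 1, so its size depends strongly on which library is kept.

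PUP3 had the largest log2 fold change with the active thione, 1.03 ± 0.40 (SE, edgeR adjusted p = 0.304). It had 42.8 and 61.5 CPM in DMSO, 53.6 and 158 with the active thione, 77.8 and 89.96 with the inactive and 87.1 and 73.2 with CQ. Replicate 2 of the active thione was above every other library and replicate 1 within the DMSO range, a difference between replicates larger than that of 99.5% of all features. Without replicate 1 the gene passed (log2 fold change 1.60, edgeR adjusted p = 0.0385), and without replicate 2 its log2 fold change was 0.04.

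PRE8 (YML092C, alpha2) came next at 0.47 ± 0.20 (SE, edgeR adjusted p = 0.327), with 103 and 106 CPM in DMSO and 130 and 160 with the active thione. RPN13 followed at 0.42. At the other end were RPN4 (-0.14, 95% interval from -0.47 to 0.19), RPN3 (0.02) and PRE4 (0.02). RPN3 had 179 and 193 CPM with the active thione and PRE4 129 and 134, and both overlapped DMSO. RPT1 and RPT6, the CQ risers, had log2 fold changes of 0.26 and 0.31 with edgeR adjusted p of 0.495 and 0.359.

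With the inactive thione, also at 20 µM, 0 of the 33 passed in edgeR, where 0.14% of all features rose and 0.0176% fell. DESeq2 also called 0 of the 33, and 1.47% of all features. At an unadjusted p under 0.05 edgeR had 3 of the 33 (9.09%), against 13% of all features. Log2 fold changes were above 0 in 29 of the 33, and in 3072 of all 5696 features. The median of the 33 was 0.19 against 0.03 for all features. Both treated libraries were above both DMSO libraries in 24 of the 33 (72.7%) and below in 3 (9.09%), against 32.2% and 26.4% of all features. The median was 0.12 without DMSO replicate 1 and 0.27 without DMSO replicate 2.

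RPN13 had the largest log2 fold change with the inactive thione, 0.73 ± 0.32 (SE), followed by PUP3 (0.69) and PRE10 (0.51), each with edgeR adjusted p from 0.373 to 0.437. In all 3 both inactive thione libraries were above both DMSO libraries. The value of RPN13 was 0.37 without inactive thione replicate 2 and 1.007 without replicate 1, and that of PUP3 was 0.45 without DMSO replicate 1. PRE10 had 108 and 124 CPM with the inactive thione. PRE4, RPN4 and RPN12 had the lowest, at -0.14, -0.14 and -0.12. In PRE4, RPN12 and RPN3 both inactive thione libraries lay below both DMSO libraries. RPN12 had 74.0 and 66.9 CPM in DMSO and 66.3 and 63.7 with the inactive thione, and PRE4 had 119 and 115 with the inactive thione.

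The active and inactive thiones, compared directly at 20 µM, differed past the threshold in 0 proteasome genes. In edgeR 0 of the 33 passed, and 0.0878% of all features were higher and 0.0351% lower with the active compound. At an unadjusted p under 0.05 edgeR had 0 of the 33, against 3.7% of all features, and DESeq2 called 0 of the 33 and 0.456% of all features. Of the 33, 23 genes were above 0 and 10 below, where 2970 of all 5696 features were above 0. The median log2 fold change of the 33, active over inactive, was 0.06 against 0.01 for all features. Without active thione replicate 2 the median was -0.02 and without replicate 1 it was 0.18. Both active libraries were above both inactive libraries in 9 of the 33 (27.3%) and below in 1 (RPN8), against 15.4% and 15.3% of all features.

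The 95% intervals of the difference were wide for some genes, and a gene that did not pass is not shown to be equal. For RPN4 the log2 fold change was 0.00 with an interval from -0.33 to 0.34 and a sign that changed in 7 of 13 alternative settings, for RPT1 0.05 (-0.31 to 0.40), for PRE9 (YGR135W, alpha3) 0.04 (-0.24 to 0.31) and for PUP3 0.34 (-0.55 to 1.23). The largest differences were those of PRE8 (0.35), PUP3 (0.34) and RPN12 (0.27) towards the active and RPN13 (-0.31), PUP1 (-0.19) and PRE10 (-0.16) towards the inactive compound. PRE8 had 130 and 160 CPM with the active and 122 and 106 with the inactive compound, with no overlap, and its interval ran from -0.09 to 0.79. RPN12 had 78.2 and 78.7 CPM with the active compound, above its inactive libraries, and its interval ran from -0.17 to 0.71. PUP1 had 176 and 212 CPM with the active and 204 and 237 with the inactive compound, which overlapped, and its interval ran from -0.54 to 0.17.

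**Figure D5:**
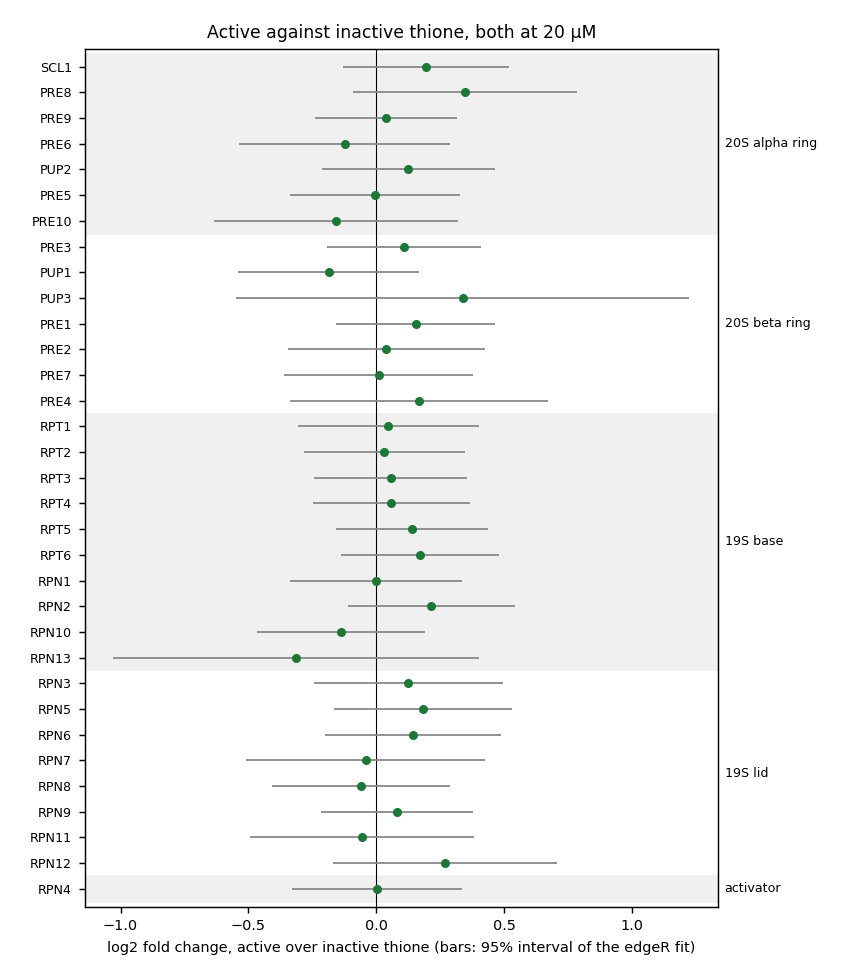
Log2 fold change of each gene, active over inactive thione, with the 95% interval of the edgeR fit. The interval of every gene includes 0, and those of PUP3 and RPN13 are the widest.

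The subunits that carry PACE and those without it had overlapping changes. The split is by the full letters GGTGGCAAA, and of the genes without them all but RPN13 hold the core letters GTGGCAA. With CQ the 27 genes with the element had a median log2 fold change of 0.37 (from -0.12 to 0.72) and the 5 without it 0.25 (from 0.23 to 0.86). With the active thione these medians were 0.31 and 0.17, and with the inactive thione 0.18 and 0.28, in the reverse order. For active over inactive the 27 had a median of 0.11 (from -0.16 to 0.35) and the 5 one of -0.14 (from -0.31 to -0.0051). Of these 5, PRE5 was above 0 without active thione replicate 1 (0.15) and RPN13 without inactive thione replicate 2 (0.019). The split was described after its values were seen and was not tested.

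Among 31 accessory genes (assembly chaperones, bound regulators, ubiquitin shuttles, the ubiquitin and Cdc48 system, and genes of Rpn4 turnover and regulation) 0 passed in any of the 4 comparisons in edgeR, with 9, 6, 7 and 0 at an unadjusted p under 0.05 for CQ, active, inactive and active over inactive. Over all features those shares were 28.3%, 13.8%, 13% and 3.7%, against 29%, 19.4%, 22.6% and 0% of the accessory genes. Past the edgeR threshold, 4.92%, 1.11%, 0.14% and 0.0878% of all features were higher in these comparisons. Lower were 8.39%, 0.263%, 0.0176% and 0.0351%. DESeq2 called 3 accessory genes with CQ (9.68%, against 16.9% of all features). It called 0 in the other comparisons, against 3.21%, 1.47% and 0.456% of all features. The accessory genes' median log2 fold changes were 0.25, 0.16, 0.14 and 0.01. With CQ the highest was that of RAD6, the ubiquitin-conjugating enzyme that acts in Rpn4 turnover, at 0.97 ± 0.43 (SE). It had 47.8 and 46.9 CPM in DMSO and 137 and 49.1 in CQ, so only CQ replicate 1 was raised, and the inactive thione libraries had 44.6 and 89.7. The lowest was NAS2, a chaperone of base assembly, at -0.48.

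UBI4, the polyubiquitin gene, had the highest log2 fold change of the accessory genes with the active thione. It had 569 and 657 CPM in DMSO and 661 and 900 in CQ. With the active compound it had 841 and 1096, and with the inactive 828 and 891. Its log2 fold change with the active thione was 0.66 ± 0.20 (SE, edgeR adjusted p = 0.185). UBI4 shares ubiquitin coding sequence with other genes, and its counts are uncertain for that reason. With the inactive thione TMA17, a chaperone of base assembly, was highest at 0.69, from 30.7 and 38.2 CPM in DMSO to 46.2 and 64.5. BLM10, the gene of an alternative cap of the core, was lowest with both thiones, at -0.26 (active) and -0.34 (inactive). Active over inactive, NAS2 was highest at 0.29 and RAD6 lowest at -0.52.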

How the data were processed

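RNA was measured in 8 libraries, 2 in each of 4 groups. Hot acid phenol extraction, a PrepX library kit and a HiSeq 2500 were used, per the labels' protocols. Build sacCer3 and the tools HTSeq, DESeq, TopHat and TopHat2 (2.1.1) are listed without roles, per the submitters' processing notes. Annotation, counting mode and strand are not given in the sources used. The authors deposited raw counts per feature and a normalized signal, the counts divided by 1 size factor per library. The signal was used only to check those factors. The table has 7122 features, and 4 empty lines were not analysed.

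The test on the raw counts was edgeR's quasi-likelihood test (edgeR 4.0.16, R 4.3.3), two-sided, with TMM scaling and the filterByExpr filter. All 8 libraries entered 1 fit with 1 term per group, since 2 libraries estimate the spread weakly. The filter kept 5696 features. P-values were adjusted by Benjamini-Hochberg over all of them with a threshold of 0.05, and "rose" and "fell" refer to it. Standard errors are the log2 fold change over the square root of F. P-values measure the spread between replicates pooled over all 4 groups, not that of the 2 groups compared. Over all features the CQ replicates differed more, by a median absolute log2 of 0.27 against 0.14 in DMSO. Over the 33 members that median was 0.13 in CQ and 0.15 in DMSO. The procedure was tested on simulated data. DESeq2 1.42.0 was an alternative. Intervals and the limit at 0 counts (3 counts) cover counting error or the fit only. Coding lengths and upstream sequences come from RefSeq R64, which corresponds to sacCer3.

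The members, lists and comparisons were chosen with earlier results of these data known. The members described are RPN4, those past the threshold, and the 3 highest and 3 lowest log2 fold changes of each comparison, some of them by log2 fold change alone. Accessory genes were named by the highest and lowest log2 fold change. Other members with values, such as PRE3 and RPN11, were named after their values were seen.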

Additional observations from a re-analysis of the deposited data

How the results depend on the processing

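Each library left out in turn, the count of proteasome genes risen with CQ (2) ran from 0 to 6 and that fallen (0) from 0 to 1. The risers with the active thione (0) ran from 0 to 1. The median log2 fold change ran from 0.24 to 0.41 with CQ, 0.15 to 0.41 with the active thione, 0.12 to 0.27 with the inactive thione, and -0.018 to 0.18 for active over inactive. The count of all features past the threshold ran from 367 to 1419 with CQ (758), 4 to 108 with the active thione (78), 1 to 18 with the inactive (9) and 3 to 10 for active over inactive (7). Risers with CQ numbered 1 without the filter, 5 with DESeq2, 1 with the compared groups alone and 5 with the replicate block. Features past the threshold with the active thione numbered 183 with DESeq2, 133 with the compared groups alone and 174 with the block; with the inactive thione 84 with DESeq2 and 54 with the block; for active over inactive 26 and 13. The cause of these shifts was not tested. Nothing in the labels says that replicate numbers pair the samples. Deviations of replicate 1 correlated at 0.39 between DMSO and active, 0.43 between DMSO and inactive, 0.33 between active and inactive, 0.21 between CQ and active, -0.15 between DMSO and CQ and -0.086 between CQ and inactive, so 4 of 6 pairs of groups deviated together and the pairing was not taken as given. With CQ the block added PRE2, PRE3 and RPN6 (5 of 33, 15.2%, against 16.7% of all features) and changed no other call of the proteasome genes. Counts without overlap, an alternative chosen after seeing the data, cannot fall when a library is left out, so these ranges say nothing about stability: 27 to 29 (CQ, 35.6% to 46.4% of all features), 22 to 30 (active, 36.7% to 46.6%), 26 to 27 (inactive, 37.9% to 47.1%) and 10 to 24 (active over inactive, 29% to 36.3%). They were 24, 20, 23 and 10 with median-of-ratios size factors. The median of all features stayed within 0.05 of 0 in every setting run. With 2 libraries a group, most log2 fold changes of the size seen here did not pass.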

Other observations

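Outside the proteasome, 46 genes held PACE in the same 300-base window, and 43 of them were tested. Some of these matches are a subunit's own element, because both strands were searched and divergent neighbours share upstream bases. Examples are ALG13 beside RPT6, GCD1 beside RPT4 and MPO1 beside SCL1. With CQ the median log2 fold change of the 43 was 0.23, with 27 above 0, where 3030 of all 5696 features were above 0. In edgeR 2 rose and 3 fell (DESeq2 called 8 in all, 18.6%, against 16.9% of all features). The 5 edgeR calls among 43 genes stand beside the 4.92% of all features that rose and the 8.39% that fell, so these counts are near the background. The risers were PDI1, the disulfide isomerase of the endoplasmic reticulum (log2 fold change 0.53), and LSB3 (1.13). The fallers were MEF2, a mitochondrial translation factor (-0.83), TVS1 (-2.04) and SDH9 (-2.98). With the active thione the median was 0.16 and with the inactive 0.20. In edgeR 0 were past the threshold in either, where 1.11% and 0.14% of all features rose and 0.263% and 0.0176% fell. At an unadjusted p under 0.05 edgeR had 10 and 8 (23.3% and 18.6%, against 13.8% and 13% of all features). DESeq2 called 1 in each (2.33%, against 3.21% and 1.47% of all features). The set was chosen by upstream sequence, the named genes by their values, and the values are a description. Among the accessory genes PACE stood upstream of ECM29, UBI4, UBA1, CDC48 and YAP1.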
